A study of Mus musculus with 60 samples.

Results

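C3H10T1/2 cells labelled 23-Tet1 were compared with cells labelled 23-NC on day 4 of adipogenic differentiation. The comparison was chosen by sample title and rests on 6 of the 60 libraries of the series, 3 of each group, with all 12231 genes that passed a filter on low values. C3H10T1/2 is a mouse embryonic fibroblast line with mesenchymal stem cell properties, and the study measured its polyadenylated RNA over days 0, 2, 4 and 6 of differentiation. Both groups had the same treatment. Confluent cells received 1 µM dexamethasone, 0.5 mM IBMX (a phosphodiesterase inhibitor), 10 µg/ml insulin, 1 µM rosiglitazone (a PPARG agonist) and 1 nM T3 (thyroid hormone) for 48 h, and then 5 µg/ml insulin in 10% FBS, so day 4 fell 2 days after the inducers had been withdrawn. The labels explain neither "23" nor "NC", and do not say how Tet1 was introduced, which promoter drives it or whether each line is 1 clone. The genotype tags of the 3 23-Tet1 samples read 23-Tet7, 23-Tet8 and 23-Tet9 and differ from the sample titles, which were used here. Whether replicates are separate cultures is not stated, and p-values therefore cover only the spread among the deposited libraries, which may be technical.

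TET1 is a dioxygenase that oxidises 5-methylcytosine in DNA, a first step of active demethylation. In adipogenesis, inducers such as dexamethasone switch on early C/EBP factors, these switch on PPARG and C/EBPA, and those in turn drive the genes of lipid uptake, lipid storage and adipokine secretion. Cells of the adipocyte lineage also secrete chemokines and acute-phase proteins, many of them targets of NF-kappaB, STAT and C/EBP factors, and progenitors lay down a collagen matrix that is remodelled as they fill with lipid.

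Tet1, on chromosome 10 (mm10, 62804570 to 62908996, minus strand), was listed at 0.03, 0.02 and 0.02 FPKM in the 3 23-NC libraries and at 5.38, 4.66 and 5.54 FPKM in the 3 23-Tet1 libraries. FPKM are fragments per kilobase of transcript relative to the mapped fragments of the library, and values were compared as log2(FPKM + 1), a scale that understates the change of low genes. The Tet1 difference on this scale was 2.59 ± 0.11 (limma, adjusted p = 7.7e-18), where ± after a log2 difference is its standard error in a fit of all 36 libraries of the table, with 3 libraries a group. The sequencing depth inferred from the smallest steps of the FPKM values was 12750000 to 14050000 fragments in 23-NC and 12650000 to 14300000 in 23-Tet1. The correlation of log2 values was 0.9913 to 0.996 for the 6 pairs of libraries within a group and 0.9543 to 0.9682 for the 9 pairs between groups. Among the 23-Tet1 libraries, replicate 2 lay nearest to the 23-NC mean for 56.8% of the called genes. The share was 77.8% of the 370 genes lower by 1 or more log2 units and 71.3% of the 429 genes higher by as much. Without replicate 2, 6719 genes were called, against 6962 with it. That library also had the highest 23-Tet1 values of the heat shock gene Hspa1b (24.6, 63.4 and 21 FPKM, against 65.1, 66.5 and 60.8 FPKM in 23-NC) and of Cd68 (12.4, 23.8 and 9.39 FPKM, against 16.8, 15.5 and 16.3 FPKM), and the part of this in the results was not tested.

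Both groups carried the RNA of adipocytes. The summed level of 10 adipocyte markers was 19986 to 27314 FPKM in 23-NC and 16058 to 16892 FPKM in 23-Tet1, most of it from Fabp4, and the leptin gene Lep was the marker listed at 0 in all 6 libraries. Of 4 brown adipocyte markers the sum was 5.28 to 7.66 FPKM in 23-NC and 2.14 to 4.07 FPKM in 23-Tet1, with Ucp1 listed at 0 throughout. Of 12 macrophage markers, the sum was 16.2 to 17.8 FPKM in 23-NC and 11.4 to 25.6 FPKM in 23-Tet1, most of it Cd68. Adgre1, Itgam, Ptprc, Tyrobp and Fcer1g, which define macrophages and other leukocytes, were listed at 0 in all 6 libraries. Cd14 read 0.78, 0.58 and 0.48 FPKM in 23-NC and 1.27, 1.49 and 1.68 FPKM in 23-Tet1. Csf1r and Mrc1 were listed at 0 in 23-NC and at 0.05 to 0.23 FPKM in 23-Tet1. Lyz2, Cx3cr1 and Aif1 stayed at or under 0.29 FPKM, with overlap between the groups. Summed endothelial markers stayed at or under 5.30 FPKM, skeletal muscle markers at or under 7.17 FPKM and epithelial markers at or under 0.31 FPKM.

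Of the 12231 genes, 6962 (56.9%) were called at an adjusted p under 0.05 (limma, Benjamini-Hochberg over all genes tested). Of these, 4285 (35%) were higher in 23-Tet1 and 2677 (21.9%) were lower, and the median difference of all genes was 0.08 on the log2 scale. A called difference of at least 1 log2 unit was present in 429 higher genes (3.51%) and 370 lower genes (3.03%). The split depended on scaling: 61.5% of calls were higher in the deposited values, 51.7% with quantile normalisation and 48.1% with median-ratio scaling, which moved the median of all genes to -0.00896. The 3 libraries of a group did not overlap those of the other in 7442 genes (60.8%; 37.8% of all genes were higher and 23% lower in this way), and gene lists are described by their counts and medians beside these figures for all genes. In bulk RNA, fewer cells of a type and less RNA per cell cannot be told apart.

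The widest rises in 23-Tet1 were in genes for inflammatory secreted proteins. Saa3, an acute-phase apolipoprotein of the serum amyloid A family, read 9.7, 6.59 and 11.7 FPKM in 23-NC and 645, 555 and 658 FPKM in 23-Tet1. Its difference of 5.94 ± 0.26 (adjusted p = 1.2e-17) was the highest of all genes tested. Saa3 lies in a cluster of similar genes on chromosome 7, and Saa1 and Saa2 share sequence with it, so the split of reads among them is uncertain. Ccl2, the chief chemoattractant of monocytes, on chromosome 11 (mm10, 82035571 to 82037453), read 1.26, 2.03 and 2.63 FPKM in 23-NC and 164, 129.7 and 159 FPKM in 23-Tet1, a difference of 5.69 ± 0.20 (adjusted p = 1.3e-19). Every 23-Tet1 library exceeded every 23-NC library for both genes by a wide margin.

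Of 25 chemokine and cytokine genes listed, 17 passed the filter, of which 14 were higher in 23-Tet1 and 1 was lower, with a median difference of 0.87. Ccl7, a monocyte chemokine that neighbours Ccl2, read 10.1, 10.4 and 14.3 FPKM in 23-NC and 214, 212 and 221 FPKM in 23-Tet1 (difference 4.12 ± 0.15). Ccl5, a chemokine for T cells and monocytes, read 0.61, 0.35 and 1.14 FPKM against 35.1, 33.3 and 40.8 FPKM (difference 4.48 ± 0.27). The neutrophil chemokine Cxcl1 read 23.9, 18.3 and 23.9 FPKM against 235, 252 and 251 FPKM (difference 3.43 ± 0.10). These 3 genes separated the groups completely, as did Cxcl5, a further neutrophil chemokine, at 3.64 ± 0.10. The member that was lower was Ccl9, a macrophage inflammatory chemokine, which read 57.5, 56.2 and 79.1 FPKM in 23-NC and 8.18, 10.4 and 9.45 FPKM in 23-Tet1, a difference of -2.65 ± 0.10. The adjusted p of these 5 genes lay between 1.1e-21 for Cxcl5 and 1.5e-14 for Ccl5. Tnf and Il1b, which encode upstream inflammatory cytokines, were among the 8 members below the filter.

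The promoters of genes in this group were read from RefSeq, which gave a 300-base window around the start site for 11 of the 15 genes with the largest rises. The pattern GGG and TTTCC with any 2 bases between them, on either strand, a core form of the NF-kappaB site chosen after the values were seen, was present in 3 of their 12 windows (25%) and in 8 of 22 windows (36.4%) of the chemokine and cytokine list, against 1.63% of all 32851 windows. The latter 8 come from the whole list, tested or not, and include 2 windows of the single gene Il1rn and that of Ccl9, the lower member. The Saa3 window carries TTNNGCAA, a C/EBP-like pattern. This second pattern was in 1 of the 12 windows of the rises (8.33%), against 10.8% of all windows. AGGTCA, the half-site of nuclear receptors, was in 0 of these 12 windows, against 16.3% of all windows. It was in 5 of 22 windows of the chemokine and cytokine list (22.7%) and 5 of 18 of the cholesterol synthesis list (27.8%). Among the 15 largest falls it was in 1 of 7 windows (14.3%). Shown here are the 250 bases before the start of Saa3 and of the 3 rises that carry the NF-kappaB pattern. All are from GRCm38.p6, 5′ to 3′ on the gene's strand, with the pattern in capitals: Cxcl1 (chr5:90890995-90891244, plus strand), Ubd (chr17:37193642-37193891, plus strand), P2rx1 (chr11:72998895-72999144, plus strand) and Saa3 (chr7:46715677-46715926, minus strand).
Cxcl1: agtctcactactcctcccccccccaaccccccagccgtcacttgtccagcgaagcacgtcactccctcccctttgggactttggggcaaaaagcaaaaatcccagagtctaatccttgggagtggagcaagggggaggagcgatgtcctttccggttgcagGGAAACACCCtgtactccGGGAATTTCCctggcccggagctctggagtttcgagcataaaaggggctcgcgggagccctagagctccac
Ubd: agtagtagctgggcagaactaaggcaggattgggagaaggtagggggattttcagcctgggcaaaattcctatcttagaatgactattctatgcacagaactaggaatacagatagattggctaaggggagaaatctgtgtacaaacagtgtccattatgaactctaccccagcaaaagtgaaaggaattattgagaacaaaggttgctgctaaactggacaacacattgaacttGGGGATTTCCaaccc
P2rx1: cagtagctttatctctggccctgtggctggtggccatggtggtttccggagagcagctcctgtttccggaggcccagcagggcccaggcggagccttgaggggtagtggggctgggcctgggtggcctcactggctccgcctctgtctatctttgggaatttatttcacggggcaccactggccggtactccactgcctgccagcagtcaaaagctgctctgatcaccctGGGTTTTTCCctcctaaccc
Saa3: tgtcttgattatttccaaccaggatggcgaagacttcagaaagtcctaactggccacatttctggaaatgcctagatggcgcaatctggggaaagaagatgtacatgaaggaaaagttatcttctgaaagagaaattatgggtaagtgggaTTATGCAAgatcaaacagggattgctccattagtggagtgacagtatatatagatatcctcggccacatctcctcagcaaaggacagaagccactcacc
In Cxcl1 the pattern begins 89 and 71 bases before the start, in Ubd 15 bases and in P2rx1 20 bases before it, and the C/EBP-like pattern of Saa3 begins 99 bases before it. A match of letters is a description and does not show that a factor binds there.

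**Figure D1:**
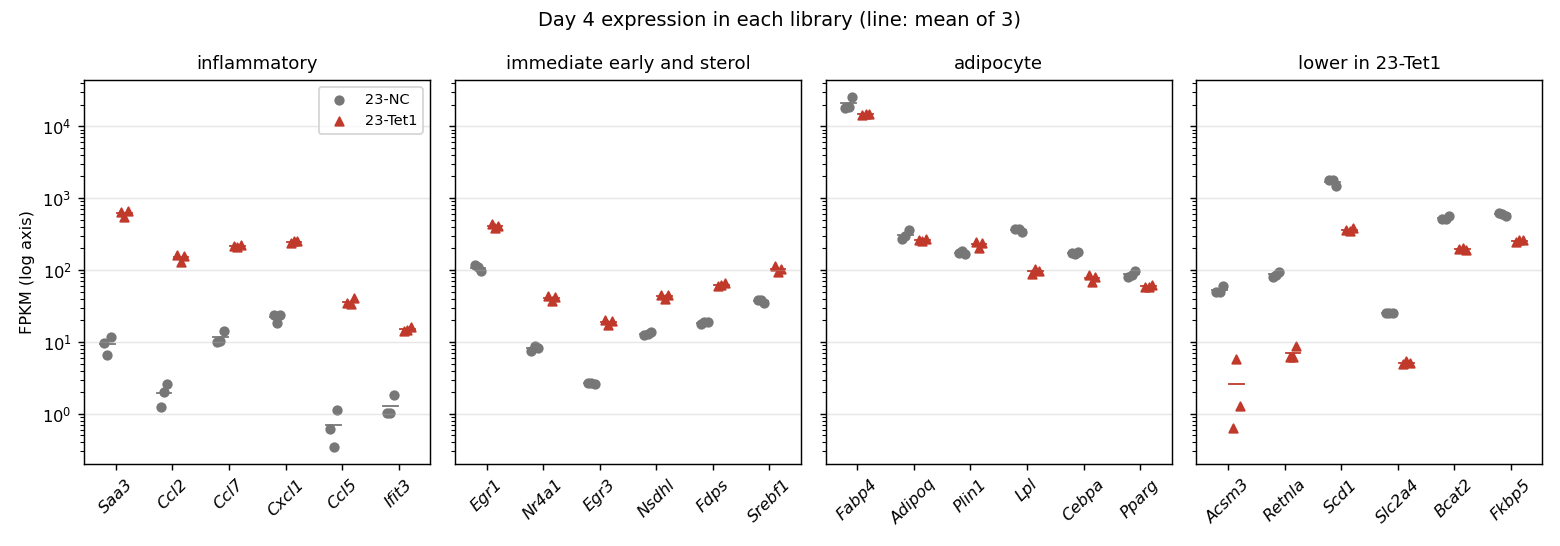
FPKM on a log axis in each of the 3 23-NC libraries (grey circles) and 3 23-Tet1 libraries (red triangles) at day 4 for 24 genes, with a line at each group's mean. Saa3 runs from 6.59 to 11.7 FPKM in 23-NC and from 555 to 658 FPKM in 23-Tet1, whereas the Fabp4 and Adipoq groups lie close together.

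Acute-phase and complement genes moved in both directions: of 19 tested, 11 were higher and 8 lower, with a median of 0.52. Saa2 read 0.46, 0.52 and 0.87 FPKM in 23-NC and 6.83, 5.93 and 9.6 FPKM in 23-Tet1 (difference 2.37 ± 0.19, adjusted p = 8.2e-12). Cfb, complement factor B of the alternative pathway, read 0.35, 0.35 and 0.48 FPKM against 4.76, 4.3 and 4.23 FPKM (difference 1.96 ± 0.08). Cfd, the adipocyte protease adipsin that cleaves factor B, read 0.23, 0.55 and 0.8 FPKM against 3.32, 2.6 and 2.65 FPKM (difference 1.35 ± 0.13), low in both groups. The central complement component C3 was abundant in both groups, at 906, 913 and 692 FPKM in 23-NC and 1749, 1598 and 1711 FPKM in 23-Tet1 (difference 1.02 ± 0.09, adjusted p = 1.0e-10). Cfb, Cfd and C3 were higher with no overlap between the groups. C4b, a component of the classical pathway named after its value was seen, was lower, by -0.94 ± 0.08.

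Several secreted acute-phase proteins were lower in 23-Tet1. Orosomucoid genes Orm1 and Orm2, near-identical copies whose reads may be split uncertainly, differed by -2.46 ± 0.11 and -1.21 ± 0.14. Lcn2, the iron-siderophore carrier lipocalin 2, read 1729, 1821 and 1969 FPKM in 23-NC and 863, 767 and 848 FPKM in 23-Tet1 (difference -1.15 ± 0.13). Lbp, the lipopolysaccharide-binding protein, read 576, 587 and 489 FPKM and 62.7, 90.1 and 71.1 FPKM (difference -2.88 ± 0.08, adjusted p = 1.8e-21). All 4 were abundant in 23-NC, in contrast to Saa2, Cfb and Cfd, which stood under 1 FPKM there.

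Of 25 interferon-stimulated genes tested, 18 were higher in 23-Tet1 and 4 lower, with a median of 0.65. Ifit3, an antiviral tetratricopeptide protein, read 1.03, 1.03 and 1.8 FPKM in 23-NC and 14.2, 14.5 and 16 FPKM in 23-Tet1 (difference 2.81 ± 0.12, adjusted p = 3.2e-18). Gbp2, a guanylate-binding GTPase induced by interferon gamma, read 0.79, 0.51 and 0.95 FPKM against 10.3, 10.9 and 11.8 FPKM (difference 2.79 ± 0.10). Isg15, a ubiquitin-like modifier, read 3.25, 2.6 and 4.12 FPKM against 19.6, 13.8 and 18 FPKM (difference 2.07 ± 0.15). All 3 were low in every 23-NC library and several-fold higher in every 23-Tet1 library. The 4 lower members were Bst2 (tetherin), Oas1a, Irf7 and Usp18, at -1.29 ± 0.16, -0.56 ± 0.13, -0.35 ± 0.10 and -0.32 ± 0.14. The Usp18 groups overlapped, since 23-Tet1 replicate 2 at 3.07 FPKM exceeded all of 23-NC, and its adjusted p was 0.046.

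Of 17 genes of class I antigen presentation tested, 10 were higher and 5 lower, with a median of 0.38. The immunoproteasome subunit genes Psmb10 and Psmb9, whose products cut peptides for presentation, differed by 2.57 ± 0.16 and 1.77 ± 0.14. Psmb10 read 2.12, 2.75 and 2.74 FPKM in 23-NC and 23.4, 17.1 and 19.8 FPKM in 23-Tet1. The peptide transporter Tap2 and the trimming peptidase Erap1 differed by 1.57 ± 0.09 and 1.20 ± 0.07. Genes of presenting molecules themselves were among the lower members. B2m, their shared light chain, read 1316, 1295 and 1572 FPKM in 23-NC and 721, 909 and 726 FPKM in 23-Tet1 (difference -0.83 ± 0.09, adjusted p = 1.4e-08). The classical heavy chain gene H2-K1 differed by -1.30 ± 0.13 and the non-classical H2-Q4 by -1.82 ± 0.16. Reads of such similar copies may be split uncertainly. H2-T23, also non-classical and named after its value was seen, went the other way. It read 47.1, 52.2 and 47.5 FPKM against 101, 96.4 and 101 FPKM (difference 1.01 ± 0.10). Nlrc5, the transactivator of class I genes, was low at 1.44, 1.34 and 1.1 FPKM against 0.38, 0.42 and 0.33 FPKM (difference -0.73 ± 0.10). Ubd, a ubiquitin-like protein that marks substrates for the proteasome, was among the 15 largest rises, at 0.33, 0.12 and 0.56 FPKM against 7.75, 8.08 and 11 FPKM (difference 2.90 ± 0.17).

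Immediate early genes, transcription factors that respond to growth factor and stress signals within minutes, were higher as a list: 13 of 18 tested were higher and 2 lower, with a median of 1.10. Egr1 read 116, 110.1 and 97.2 FPKM in 23-NC and 431, 386 and 414 FPKM in 23-Tet1 (difference 1.92 ± 0.07, adjusted p = 1.7e-19). Egr3 read 2.72, 2.7 and 2.62 FPKM against 20.1, 17.4 and 19.5 FPKM (difference 2.44 ± 0.09). The orphan nuclear receptor Nr4a1 read 7.42, 8.87 and 8.35 FPKM against 43.9, 37.6 and 42.5 FPKM (difference 2.20 ± 0.09). The AP-1 subunit Fosb differed by 1.87 ± 0.10, with no overlap for any of these 4. The 2 lower members were Jun at -0.20 ± 0.06 and Crem, a repressor in the cAMP pathway, at -0.26 ± 0.09. Without 23-Tet1 replicate 2, or after quantile normalisation, 1 member was lower.

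Cholesterol synthesis had the largest share of higher members of the 42 gene lists: 20 of 22 genes tested were higher, none was lower and the median was 0.89. Fdps, the synthase of farnesyl diphosphate, read 17.5, 18.9 and 18.9 FPKM in 23-NC and 60.8, 62.1 and 65.2 FPKM in 23-Tet1 (difference 1.72 ± 0.10). Nsdhl, an enzyme of the later steps from lanosterol to cholesterol, differed by 1.64 ± 0.08. Both genes were higher in all 3 23-Tet1 libraries than in any 23-NC library. The promoters of 15 of the listed genes held 18 windows with a median of 23 CpG sites, against 7 for all windows. The pattern CCAAT, the core of the NF-Y site and chosen after the values were seen, was in 15 of them (83.3%, against 37.4% of all windows), and TCACNCCAC, a sterol regulatory element pattern, in 1 (5.56%, against 1.24%). The sterol pattern was also in 1 of the 12 windows of the 15 largest rises (8.33%), that of Saa3, where it is not marked above. The window of the cholesterol list belongs to Hmgcs1, the cytosolic HMG-CoA synthase, chosen after the values were seen. Hmgcs1 read 89.1, 89.1 and 96.1 FPKM in 23-NC and 171, 155 and 176 FPKM in 23-Tet1 (difference 0.87 ± 0.06). Its 250 bases before the start (GRCm38.p6, chr13:119690101-119690350, plus strand) show the sterol element in capitals, beginning 137 bases before the start.
Hmgcs1: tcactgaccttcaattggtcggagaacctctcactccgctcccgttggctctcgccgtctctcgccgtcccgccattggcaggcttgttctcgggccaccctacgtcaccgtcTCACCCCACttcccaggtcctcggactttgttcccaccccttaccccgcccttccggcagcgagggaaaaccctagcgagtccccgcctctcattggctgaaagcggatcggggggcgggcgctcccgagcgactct

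Fatty acid synthesis, by contrast, divided: 6 of 18 genes were higher and 7 lower, with a median of -0.04. Srebf1, the transcription factor of lipid synthesis counted with the adipogenic factors, read 37.9, 38.9 and 34.7 FPKM in 23-NC and 112, 92.5 and 105 FPKM in 23-Tet1 (difference 1.45 ± 0.08, adjusted p = 8.7e-16). The elongase Elovl6 differed by 1.73 ± 0.09, the desaturase Fads2 by 1.65 ± 0.10 and the ATP citrate lyase Acly by 0.84 ± 0.06. Scd1, the stearoyl-CoA desaturase that makes oleate for storage, read 1813, 1803 and 1488 FPKM in 23-NC and 362, 351 and 379.6 FPKM in 23-Tet1 (difference -2.22 ± 0.09, adjusted p = 2.5e-18). Acacb, the mitochondrial acetyl-CoA carboxylase, differed by -1.68 ± 0.10 and Scd2 by -0.79 ± 0.08. The members with higher and with lower values separated the groups without overlap in each of these cases.

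**Figure D2:**
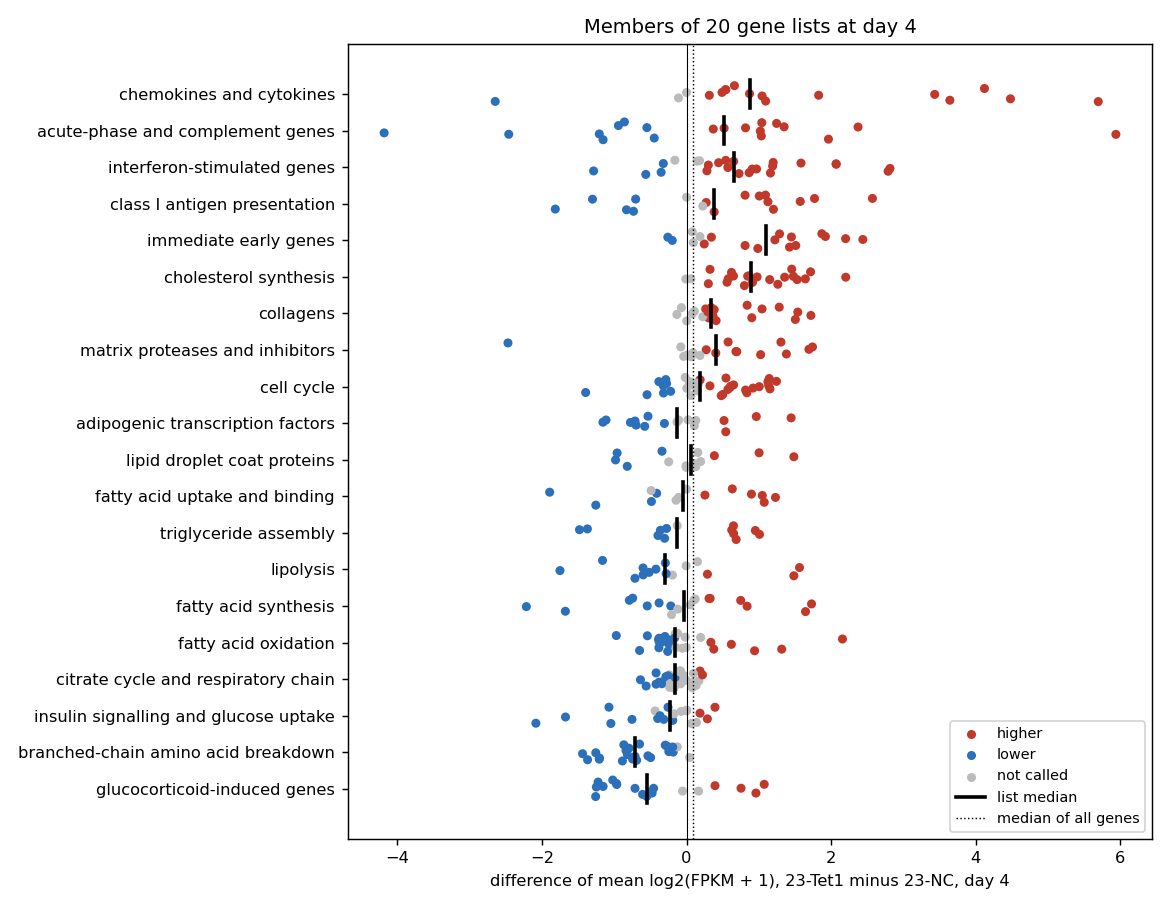
Each point is the difference of mean log2(FPKM + 1), 23-Tet1 minus 23-NC, of 1 gene of 20 lists at day 4, red where called higher, blue where called lower and grey where not called, with a bar at the list median and a dotted line at the median of all genes (0.08). Cholesterol synthesis has 20 genes called higher and none lower, and branched-chain amino acid breakdown has none higher and 21 lower.

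Adipogenic transcription factors were lower more often than higher: of 17 tested, 8 were lower and 4 higher, with a median of -0.13. Cebpa, a late driver of the adipocyte programme, read 173, 169 and 177 FPKM in 23-NC and 85.2, 67.9 and 79.1 FPKM in 23-Tet1 (difference -1.16 ± 0.08, adjusted p = 8.7e-13). Pparg, its partner and the target of rosiglitazone, read 81.1, 84.4 and 97.9 FPKM against 58.9, 58.8 and 62.8 FPKM (difference -0.53 ± 0.08, adjusted p = 7.6e-07). Klf15 and Klf9, Kruppel-like factors of the terminal stage that respond to glucocorticoids, differed by -1.11 ± 0.09 and -0.71 ± 0.14. Every 23-Tet1 library was below every 23-NC library for these 4 genes. The higher members other than Srebf1 were the preadipocyte factor Zfp423 at 0.96 ± 0.09, Ebf1 at 0.54 ± 0.08 and Stat5a at 0.52 ± 0.06. Cebpb, an early factor, read 188, 83.5 and 121 FPKM in 23-NC and 105, 101 and 135 FPKM in 23-Tet1 and was not called (adjusted p = 0.81). Rxra, the heterodimer partner of PPARG, read 102, 101 and 90.1 FPKM against 102, 93.4 and 101 FPKM and was not called (adjusted p = 0.79). Among 18 genes that restrain adipogenesis, 8 were higher and 5 lower (5 and 5 under median-ratio scaling), with Zfp521, an antagonist of Ebf1, at 1.25 ± 0.07 and Foxo1 at -1.07 ± 0.09.

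Fabp4, Adipoq and Plin1, classic adipocyte products, differed by less than 0.5 log2 units in either direction. Others of the 10 adipocyte markers differed by more: Retn by 0.81 ± 0.13, Cfd by 1.35 ± 0.13, Cebpa by -1.16 ± 0.08 and Pparg by -0.53 ± 0.08. Every 23-Tet1 library was below every 23-NC library for Fabp4 and for Adipoq. Fabp4, the fatty acid carrier of adipocytes, read 18184, 18668 and 25315 FPKM in 23-NC and 14111, 14659 and 14991 FPKM in 23-Tet1, a difference of -0.49 ± 0.26 that was not called (adjusted p = 0.11). Adipoq, the hormone adiponectin, read 274, 298 and 359 FPKM against 260.1, 254 and 271 FPKM (difference -0.24 ± 0.09, adjusted p = 0.025). Its call was lost without 23-NC replicate 3 (adjusted p = 0.243) and without 23-Tet1 replicate 1 (0.0566) or 2 (0.0724). It was also lost with a pseudocount of 0.1 FPKM (0.274), quantile normalisation (0.36), the 2 groups alone (0.0989) and library weights (0.107), whereas Fabp4 was called lower under median-ratio scaling (0.0471). Plin1, the main coat protein of the adipocyte lipid droplet, was higher, at 172, 183 and 166 FPKM against 243, 204 and 235 FPKM (difference 0.38 ± 0.06, adjusted p = 3.4e-06), a call lost with a pseudocount of 0.1 FPKM (0.0871). The 14 lipid droplet genes tested gave 3 higher, 4 lower and a median of 0.06, which turned to -0.05 under median-ratio scaling, and after quantile normalisation 6 were higher and 5 lower. G0s2, an inhibitor of the triglyceride lipase ATGL, and Plin4 differed by 1.48 ± 0.18 and 1.00 ± 0.08, whereas Plin3 and Cav2, a caveolin, differed by -0.96 ± 0.06 and -0.98 ± 0.13.

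Fatty acid uptake genes were 6 higher and 4 lower of 14 tested, with a median of -0.06 that turned to 0.01 after quantile normalisation. Lpl, the lipase that frees fatty acids from lipoproteins at the cell surface, read 375, 367 and 342 FPKM in 23-NC and 88.8, 103 and 98 FPKM in 23-Tet1 (difference -1.89 ± 0.07, adjusted p = 8.9e-19). Angptl4, which inactivates that lipase, went the other way, at 52.5, 54.7 and 56.4 FPKM against 122, 109 and 117 FPKM (difference 1.07 ± 0.08). The lipoprotein receptor Vldlr differed by -1.26 ± 0.09, the scavenger receptor Cd36 by -0.41 ± 0.09 and the transporter Slc27a1 by 1.23 ± 0.09. Lpl and Angptl4 each separated the groups without overlap. Among adipocyte hormones, 7 of 14 were higher and 3 lower (5 lower under median-ratio scaling), with a median of 0.40. The growth factor Igf1 differed by 1.19 ± 0.08 and Nampt, an NAD-synthesis enzyme also secreted by adipocytes, by -1.77 ± 0.10.

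Triglyceride assembly gave 6 higher and 6 lower of 13 tested, with a median of -0.13. Dgat2, which adds the last acyl chain, read 564, 565 and 524 FPKM in 23-NC and 199, 194 and 198 FPKM in 23-Tet1 (difference -1.48 ± 0.06, adjusted p = 5.4e-18), and the phosphatidate phosphatase Lpin1 differed by -1.37 ± 0.11. The acyltransferase Agpat3 and the glyceroneogenic enzyme Pck1 were higher, by 1.01 ± 0.06 and 0.95 ± 0.08. Lipolysis genes were lower more often, 9 of 15 against 3 higher, with a median of -0.29. Prkar2b, the adipocyte regulatory subunit of protein kinase A, read 362, 353 and 370.3 FPKM in 23-NC and 163, 158 and 162 FPKM in 23-Tet1, a difference of -1.16 ± 0.07. The triglyceride lipase Pnpla2 (ATGL) read 739, 740.0 and 696 FPKM against 485, 482 and 465 FPKM (difference -0.60 ± 0.08, adjusted p = 9.8e-08). Both genes were lower, and the lipase inhibitor G0s2 was higher. Lipe, the hormone-sensitive lipase, named after its value was seen, was not called, at 369.7, 364 and 370.2 FPKM against 391, 334 and 377 FPKM. The natriuretic peptide clearance receptor Npr3 was also higher, by 1.56 ± 0.08.

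Breakdown of branched-chain amino acids, a catabolic route that adipocytes acquire as they mature, was lower nearly throughout: 21 of 23 genes tested were lower, none was higher and the median was -0.71. Bcat2, the mitochondrial transaminase that opens the route, read 508, 515 and 570.4 FPKM in 23-NC and 193, 201 and 191 FPKM in 23-Tet1 (difference -1.44 ± 0.11, adjusted p = 1.2e-12). Bckdha, a subunit of the dehydrogenase that commits the carbon, read 82.6, 86.1 and 88.7 FPKM against 34.1, 38.5 and 33.6 FPKM (difference -1.26 ± 0.08). Further down, Pcca of propionyl-CoA carboxylase differed by -1.37 ± 0.05 and the semialdehyde dehydrogenase Aldh6a1 by -1.21 ± 0.07. The lower values thus ran from the first to the last steps of the route, with no overlap between groups for these 4 genes.

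Other oxidative and glucose lists had members of both directions. Of 27 fatty acid oxidation genes, 14 were lower and 6 higher, with a median of -0.16. Hadhb, of the trifunctional protein of beta-oxidation, differed by -0.65 ± 0.08, while Cpt1a, the gatekeeper of fatty acid entry into mitochondria, read 9.36, 9.07 and 6.64 FPKM in 23-NC and 22.3, 21.3 and 22.6 FPKM in 23-Tet1 (difference 1.32 ± 0.10). The peroxisomal thiolase Acaa1b, a near copy of Acaa1a with uncertain reads, differed by 2.16 ± 0.17. Of 32 citrate cycle and respiratory chain genes, 11 were lower and 2 higher, with a median of -0.17, against 10 lower and 6 higher after quantile normalisation (median -0.05) and 20 lower and none higher under median-ratio scaling. Of 20 insulin signalling and glucose uptake genes, 10 were lower and 3 higher, with a median of -0.22, and 1 was higher after quantile normalisation and under median-ratio scaling. Slc2a4, the insulin-responsive glucose transporter GLUT4, read 24.9, 25.4 and 25.1 FPKM in 23-NC and 5.01, 5.35 and 5.15 FPKM in 23-Tet1 (difference -2.08 ± 0.06, adjusted p = 1.1e-21). The Slc2a4 values were tight within each group and far apart between them. Glycolysis genes were 7 higher and 8 lower of 20, with a median of 0.06 that turned to -0.06 under median-ratio scaling, and the hexokinases moved apart, Hk2 at -1.01 ± 0.07 and Hk1 at 0.56 ± 0.07.

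Genes induced by glucocorticoids were mostly lower at day 2, when the 48 h with dexamethasone ended, and at day 4. At day 0, before dexamethasone, 7 of 19 tested were lower and 5 higher (23.5% and 37.8% of all genes), with a median of -0.06. At day 2, 12 were lower and 6 higher (25.2% and 38.7% of all genes), with a median of -0.64. At day 4, with dexamethasone withdrawn from both groups, 13 were lower and 4 higher, with a median of -0.55. Fkbp5, a chaperone that restrains the glucocorticoid receptor, read 628, 609 and 556 FPKM in 23-NC and 247, 259 and 259 FPKM in 23-Tet1 (difference -1.22 ± 0.06, adjusted p = 4.3e-16). The metallothioneins Mt1 and Mt2 differed by -1.26 ± 0.12 and -1.25 ± 0.12. Mt1 read 5263, 5083 and 5483 FPKM in 23-NC and 1937, 2669.7 and 2075 FPKM in 23-Tet1. The higher members were Angptl4, Gadd45b at 0.96 ± 0.11, Zbtb16 at 0.75 ± 0.08 and the clock gene Per1 at 0.39 ± 0.07. Among 20 antioxidant genes of the NRF2 pathway, 9 were lower and 4 higher. Gclc, the rate-limiting enzyme of glutathione synthesis, read 106, 101 and 88.6 FPKM against 14, 25.8 and 15 FPKM (difference -2.42 ± 0.12), and the glutathione transferase Gstm1 differed by -1.52 ± 0.12. Replicate 2 was the highest 23-Tet1 library for Mt1, Gclc and Gstm1 and stayed below all of 23-NC.

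Collagen genes were called higher or not called. Of 21 collagen genes tested, 15 were higher and none lower, with a median of 0.34. Col3a1, a fibrillar collagen of loose connective tissue, read 241, 244 and 213 FPKM in 23-NC and 588, 537 and 575 FPKM in 23-Tet1 (difference 1.28 ± 0.06, adjusted p = 7.7e-18). Col6a2, of the collagen VI mesh around adipocytes, read 548, 555 and 459 FPKM against 1601, 1396 and 1536 FPKM (difference 1.54 ± 0.08). Both groups of libraries were tight and apart for these genes. Tnc, tenascin C, a matrix glycoprotein of remodelling tissue, read 2.92, 3.14 and 2.01 FPKM in 23-NC and 49.3, 44 and 48.9 FPKM in 23-Tet1 (difference 3.73 ± 0.10, adjusted p = 5.9e-22). Of 32 other matrix genes, 17 were higher and 8 lower (5 lower after quantile normalisation), the lower ones including the cross-linking enzyme Lox at -1.90 ± 0.09 and thrombospondin Thbs1 at -2.72 ± 0.14. Of 17 matrix proteases and inhibitors, 10 were higher and 1 lower (2 lower under median-ratio scaling or without 23-Tet1 replicate 2). Mmp14, the membrane-bound collagenase, read 125, 125 and 101 FPKM in 23-NC and 405, 370.1 and 401 FPKM in 23-Tet1 (difference 1.74 ± 0.07), its inhibitor Timp1 differed by 1.31 ± 0.12, and the lower member was the serpin Serpine2 at -2.47 ± 0.15.

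The receptor genes Pdgfra and Pdgfrb were among the higher genes, but the progenitor list that holds them stayed near the shares of all genes. Of 12 mesenchymal progenitor markers tested, 5 were higher and 2 lower (41.7% and 16.7%, against 35% and 21.9% of all genes). Their median was 0.14, against 0.08 for all genes. Pdgfra, the receptor that marks adipocyte progenitors, read 13.1, 12.6 and 9.4 FPKM in 23-NC and 54, 49.6 and 55.9 FPKM in 23-Tet1 (difference 2.10 ± 0.11, adjusted p = 1.3e-15), and Pdgfrb differed by 1.23 ± 0.10. The lower members were Ly6a (Sca-1) at -1.54 ± 0.21 and Thy1 at -0.45 ± 0.14. Of 16 cartilage, tendon and bone genes, 9 were higher and 3 lower, with a median of 0.49, among them the phosphate-regulating peptidase Phex at 1.57 ± 0.08 and osteopontin Spp1 at 1.38 ± 0.07. The WNT potentiators of the R-spondin family moved apart, Rspo2 at 1.67 ± 0.07 and Rspo3 at -1.62 ± 0.08, within a WNT list of 8 higher and 6 lower of 17. In the BMP and TGF-beta pathway 5 were higher and 9 lower of 23: the latent TGF-beta binding proteins Ltbp1 and Ltbp2 differed by 1.80 ± 0.08 and 1.55 ± 0.09, and the BMP target Id1 by -0.75 ± 0.11.

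Of 36 cell cycle genes, 18 were higher and 8 lower, with a median of 0.18. The higher members with the largest differences included the replicative helicase subunits Mcm5 and Mcm2, at 1.24 ± 0.09 and 1.15 ± 0.06, and the G1 cyclin Ccnd2, at 1.14 ± 0.10, whereas cyclins Ccne2 and Ccnb2 and the centromere histone Cenpa were lower, at -1.40 ± 0.14, -0.55 ± 0.11 and -0.38 ± 0.12. Mcm5 read 3.6, 2.76 and 3.01 FPKM in 23-NC and 9.32, 7.94 and 8.98 FPKM in 23-Tet1, low in both. Of 14 genes of the DNA methylation machinery, 7 were higher and 2 lower, with a median of 0.33. Besides Tet1 these included Dnmt1, the maintenance methyltransferase, at 9.22, 8.62 and 7.04 FPKM against 14.8, 14 and 14.5 FPKM (difference 0.74 ± 0.08, adjusted p = 4.3e-09), and its cofactor Uhrf1 at 0.68 ± 0.07. Tet3 read 11.9, 11.6 and 8.68 FPKM in 23-NC and 19.6, 17.1 and 18.4 FPKM in 23-Tet1 (difference 0.73 ± 0.15, adjusted p = 1.3e-04). Tet2 read 5.45, 4.74 and 4.07 FPKM against 6.43, 7.07 and 6.54 FPKM (difference 0.42 ± 0.16, adjusted p = 0.029), and its call was lost after quantile normalisation (0.139), under median-ratio scaling (0.0977) and without 23-NC replicate 2 (0.0572) or 3 (0.126) or 23-Tet1 replicate 2 (0.0806) or 3 (0.0528). The lower members were the methyl-CpG binding proteins Mbd1 and Mbd2, at -0.38 ± 0.07 and -0.18 ± 0.06.

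Outside the lists, the 15 largest rises included Ptn, the heparin-binding growth factor pleiotrophin, at 88, 93.8 and 108 FPKM in 23-NC and 1068, 985 and 1133 FPKM in 23-Tet1 (difference 3.45 ± 0.09, adjusted p = 4.8e-22). The water channel Aqp1 read 8.12, 8.38 and 8.02 FPKM against 74.3, 67 and 73.2 FPKM (difference 2.98 ± 0.06, adjusted p = 9.9e-25). P2rx1, an ATP-gated ion channel, read 1.13, 0.84 and 1.02 FPKM against 15.3, 14.1 and 16.6 FPKM (difference 3.03 ± 0.11). Each was narrow within groups, and Sned1, a matrix protein, and Wfdc18, of the whey acidic protein family, were also in this set, at 3.47 ± 0.31 and 3.32 ± 0.16. Of the 15 largest falls, Acsm3, a mitochondrial medium-chain acyl-CoA synthetase, read 49.3, 50.2 and 59.2 FPKM in 23-NC and 0.64, 5.88 and 1.29 FPKM in 23-Tet1 (difference -4.18 ± 0.25, adjusted p = 1.4e-14). The 3 23-Tet1 libraries spread widely for Acsm3, with replicate 2 the highest. None reached 23-NC, which the rule for this set requires. Retnla, the resistin-like secreted protein alpha, read 80.3, 86.3 and 94.2 FPKM against 6.14, 6.13 and 8.66 FPKM (difference -3.47 ± 0.16). Trp53inp1, a stress protein counted with the p53 targets, read 382, 379 and 364 FPKM against 43.6, 77.2 and 48.9 FPKM (difference -2.75 ± 0.13). The receptor tyrosine kinase Fgfr2 differed by -2.73 ± 0.08, the carboxylesterase Ces1d, an adipocyte triglyceride hydrolase, by -2.77 ± 0.14, and Ccdc80, a secreted protein of adipose tissue, by -2.71 ± 0.15. RefSeq windows were found for 6 of these 15 falls, and TTNNGCAA was in 3 of their 7 windows (42.9%, against 10.8% of all). The Retnla promoter (GRCm38.p6, chr16:48842359-48842608, plus strand) is shown for it, with the pattern in capitals on the opposite strand, beginning 134 bases before the start.
Retnla: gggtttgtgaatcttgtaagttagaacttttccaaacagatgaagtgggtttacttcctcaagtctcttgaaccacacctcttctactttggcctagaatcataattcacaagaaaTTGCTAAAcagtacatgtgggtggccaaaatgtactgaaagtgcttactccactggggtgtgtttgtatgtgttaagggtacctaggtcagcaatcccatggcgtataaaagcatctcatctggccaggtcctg

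The same libraries were set against the other days by testing whether the 23-Tet1 minus 23-NC difference itself changed. It differed between day 4 and day 2 in 3874 genes (31.7%), 1913 upward (15.6%) and 1961 downward (16%), and between day 4 and day 0 in 6176 genes (50.5%; 24.4% upward and 26.1% downward). From day 4 to day 6 it changed in 6713 genes (54.9%), 3059 upward (25%) and 3654 downward (29.9%). The groups themselves differed in 61.3% of genes at day 0, of which 37.8% of all genes were higher, in 63.9% at day 2 and in 65% at day 6, where 29% were lower. Genes called on both days in opposite directions were 1292 of 4684 (27.6%) for days 0 and 4, 378 of 5367 (7.04%) for days 2 and 4, and 1561 of 4916 (31.8%) for days 4 and 6.

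The chemokine and cytokine, interferon-stimulated, and acute-phase and complement lists had more lower than higher members on days 0 and 2. At day 4 they had more higher ones. Class I antigen presentation had 1 higher and 13 lower members at day 0, but 8 and 7 at day 2. At day 0, when 37.8% of all genes were higher and 23.5% lower, the chemokine and cytokine list had 1 higher and 12 lower members and the interferon-stimulated list 0 and 21. Chemokine and cytokine genes numbered 6 higher against 8 lower at day 2 (38.7% and 25.2% of all genes) and 14 higher against 1 lower at day 4, and the change between these days was upward in 13 of 17 genes and downward in none. Interferon-stimulated genes were 3 higher and 19 lower at day 2, and the change to day 4 was upward in 24 of 25. Ccl2 averaged 3.52 ± 0.414 FPKM (SD, n = 3) in 23-NC and 11.8 ± 2.13 FPKM in 23-Tet1 at day 2, 1.97 ± 0.687 and 151 ± 18.5 FPKM at day 4, and 4.14 ± 1.3 and 1.98 ± 0.404 FPKM at day 6. Of days 2, 4 and 6, its 23-Tet1 mean was highest at day 4, and at day 6 it was below that of 23-NC. Saa3 averaged 3.66 ± 1.49 FPKM at day 2, 619 ± 56.5 FPKM at day 4 and 12.1 ± 2.67 FPKM at day 6 in 23-Tet1. C3 in 23-Tet1 went from 0.74 ± 0.185 FPKM at day 0 through 118 ± 10.8 FPKM at day 2 to 1686 ± 78.6 FPKM at day 4, while 23-NC read 413 ± 39.5 FPKM at day 0. In both, the 23-Tet1 mean of day 4 was far above that of day 2. The interaction from day 2 to day 4 was 5.18 ± 0.37 for Saa3 and 5.16 ± 0.38 for Ccl5, the 2 largest positive values among named genes averaging 5 FPKM or more in the higher group.

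**Figure D3:**
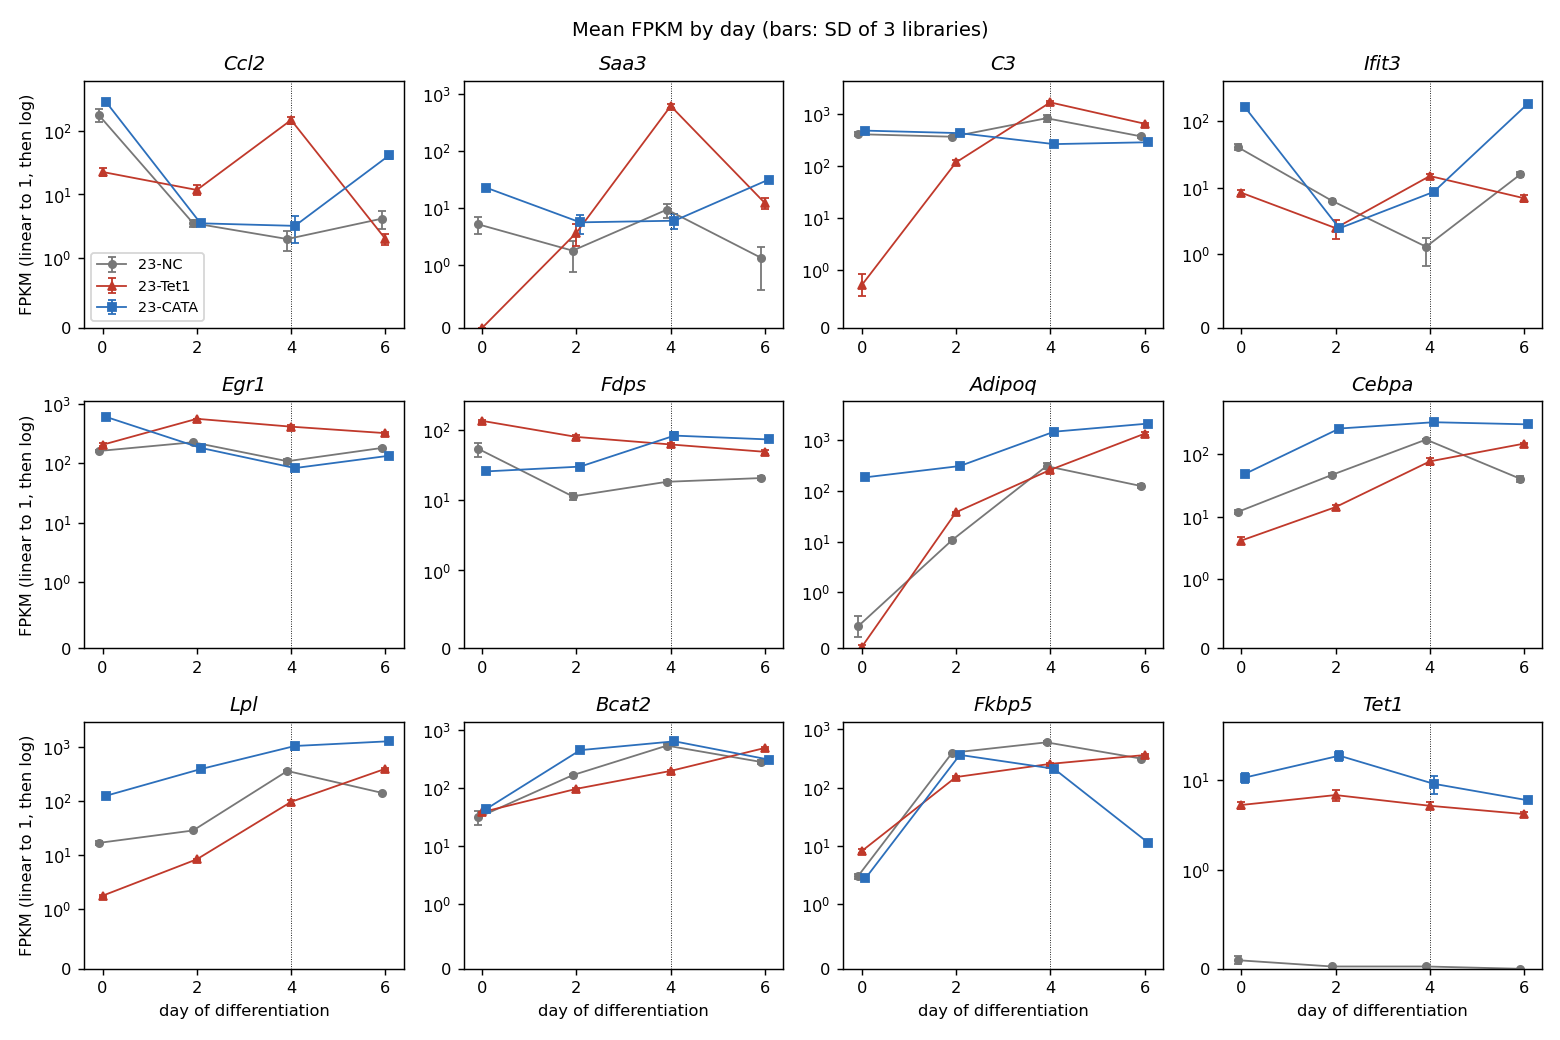
Mean FPKM of 12 genes on days 0, 2, 4 and 6 in 23-NC (grey circles), 23-Tet1 (red triangles) and 23-CATA (blue squares), with bars for the SD of 3 libraries and an axis that is linear to 1 FPKM and logarithmic above. The 23-Tet1 line of Saa3 peaks at day 4, and that of Adipoq crosses above 23-NC between days 4 and 6.

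Some other lists turned, kept their direction or reached their low point at day 4. Of 21 collagen genes, 3 were higher and 14 lower at day 0, against 37.8% and 23.5% of all genes. At day 4 they were 15 and 0, and at day 6 they were 5 and 9, against 36% and 29% of all genes. Matrix proteases and inhibitors went from 2 higher and 11 lower at day 0 to 10 and 1 at day 4 and 3 and 13 at day 6. Cholesterol synthesis genes were 22 higher of 22 at day 2 with a median of 1.65, so the day 4 median of 0.89 was smaller, and the change was downward in 18 genes and upward in none. Among branched-chain amino acid genes, day 2 had 9 higher and 6 lower members, day 4 had 21 lower ones and day 6 had 20 higher ones (36% of all genes). Their change was downward in 21 of 23 from day 2 to day 4 and upward in 22 of 23 from day 4 to day 6. Citrate cycle and respiratory chain genes, 11 of 32 lower at day 4, were all 32 higher at day 6. The lipolysis median went from -0.29 at day 4 to 1.75 at day 6, with 13 of 15 genes higher at day 6. Adipoq averaged 310.4 ± 44.2 FPKM in 23-NC and 262 ± 8.8 FPKM in 23-Tet1 at day 4, and 126 ± 8.87 and 1359 ± 84.5 FPKM at day 6, an interaction of 3.66 ± 0.13 (adjusted p = 4.9e-20). Cebpa went from a difference of -1.16 ± 0.08 at day 4 to 1.86 ± 0.08 at day 6. The Cebpa mean was 173 ± 4.05 FPKM at day 4 and 40.6 ± 3.95 FPKM at day 6 in 23-NC, and 77.4 ± 8.79 and 149 ± 2.09 FPKM in 23-Tet1, so the level was lower on the later day in 23-NC and higher in 23-Tet1.

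**Figure D4:**
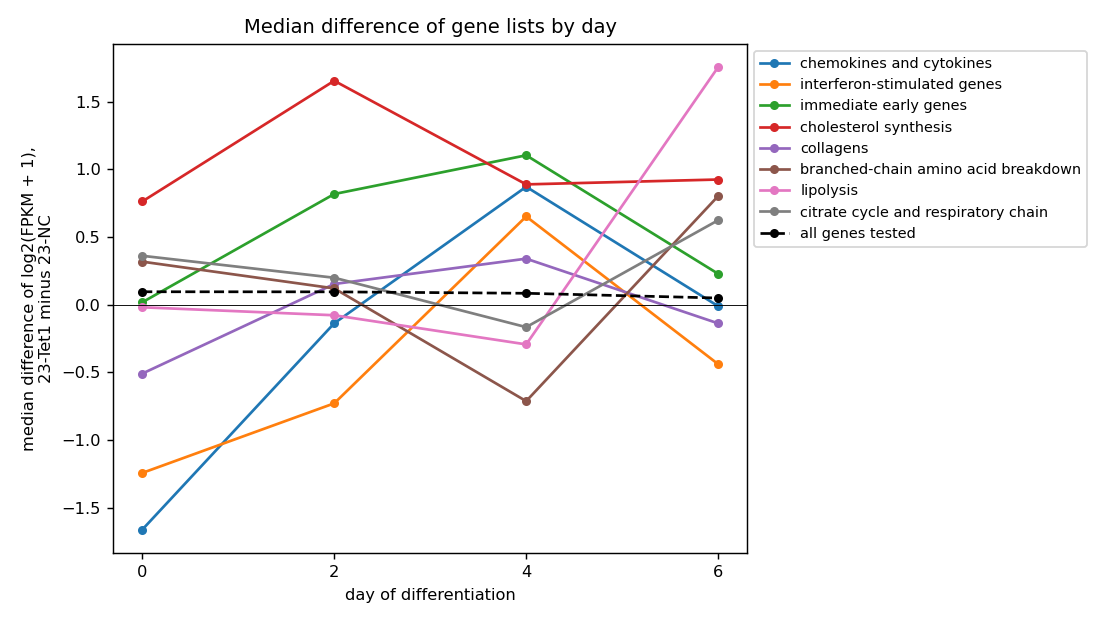
Median difference of log2(FPKM + 1), 23-Tet1 minus 23-NC, over the tested genes of 8 lists and over all genes (dashed) on days 0, 2, 4 and 6. The chemokine and interferon medians cross to positive at day 4 (0.87 and 0.65), where branched-chain amino acid breakdown is at its lowest (-0.71).

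Another line of the table, labelled 23-CATA, which the labels also leave unexplained, was set beside 23-Tet1 at day 4. In a test of 23-CATA against 23-Tet1, 9073 genes were called (74.2%), 3378 higher in 23-CATA (27.6%) and 5695 lower (46.6%). The test does not use 23-NC but shares the 3 23-Tet1 libraries with the comparison above. It is therefore no separate support for genes named by their values there, such as Ccl2 and Saa3. Of the 17 chemokine and cytokine genes, 15 were lower in 23-CATA and 1 higher. Ccl2 averaged 3.19 ± 1.45 FPKM in 23-CATA, a difference of -5.24 ± 0.20 from 23-Tet1 (adjusted p = 1.5e-19), and Saa3 averaged 5.95 ± 1.74 FPKM (difference -6.51 ± 0.26). Both levels were near those of 23-NC, at 1.97 ± 0.687 and 9.33 ± 2.57 FPKM. Branched-chain amino acid genes were higher in 23-CATA in 23 of 23, and citrate cycle and respiratory chain genes in 32 of 32. Adipoq averaged 1487 ± 111 FPKM and Lpl 1050.5 ± 156 FPKM in 23-CATA, differences of 2.50 ± 0.09 and 3.42 ± 0.07 from 23-Tet1. Tet1 itself averaged 9.17 ± 2.14 FPKM in 23-CATA and 5.19 ± 0.469 FPKM in 23-Tet1.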

How the data were processed

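Polyadenylated RNA was measured in 60 libraries, of which the 3 23-Tet1 and 3 23-NC libraries of day 4 are described. STAR 2.4.1a, RSEM and the mm10 build are named in the submitters' processing notes, and the values the authors deposited are FPKM to 2 decimals for 24982 genes. Because FPKM is relative to the total of a library, a few abundant genes can shift all others. FPKM summed to 536631 to 612783 in 23-NC and 521536 to 524474 in 23-Tet1, and the 10 most abundant genes held 10.8 to 11.8% and 8.41 to 8.96% of it. Raw counts are not used here. Depth was inferred from the smallest FPKM steps of 3366 genes with 1 transcript, and limits the precision of low genes. Mitochondrially encoded genes are not analysed here, and 26 symbols turned into dates were left as they stood.

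Of the 24982 genes, 12231 reached 1 FPKM in at least 3 of the table's 36 libraries. Their log2(FPKM + 1) values entered a single limma model (version 3.58.1, R 4.3.3) over 12 groups, with a mean-variance trend in its empirical Bayes step. Calls are Benjamini-Hochberg adjusted p under 0.05. The members and the 42 gene lists were chosen with earlier results of these data known. Genes named are 12 fixed genes, the 15 largest rises and falls (called, no overlap, at least 5 FPKM in the higher group), up to 4 members each way per list and, for each change between days, the 3 largest each way. Some genes that the rule names are not reported here. Names outside this rule were chosen after the values were seen or are cell type markers. Replicate numbers did not pair the samples: same-numbered residuals correlated at -0.0103, -0.0158 and 0.0741. Alternatives were another pseudocount, other filters, 2 other scalings, the 2 groups alone, a replicate block, library weights and leaving out each library.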

Additional observations from a re-analysis of the deposited data

Results flagged for a closer look

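The 23-Tet1 minus 23-NC difference on the log2(FPKM + 1) scale was tested for change between days, in the same limma fit. Between day 0 and day 4 it changed in 6176 genes. The largest upward changes among the named genes were those of C3, by 8.92, Cxcl5, by 8.72, and Ccl2, by 8.62. The largest downward changes were those of Acsm3, at -3.73, the mitochondrial folate enzyme Mthfd2, at -3.64, and Retnla, at -3.40.

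Between day 2 and day 4 the difference changed in 3874 genes. It went up by 5.18 for Saa3, by 5.16 for Ccl5 and by 4.52 for the serpin Serpina3g. It went down for Car3, a carbonic anhydrase of muscle and fat, at -2.61, for the lipid-antigen presenter Cd1d1, at -2.56, and for Acsm3, at -2.54.

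Between day 4 and day 6 it changed in 6713 genes. It went up by 5.56 for the lipogenic regulator Thrsp, by 5.53 for Car3 and by 5.52 for Cyp2e1, a cytochrome P450. It went down for Ccl2, at -6.46, for the prolactin family gene Prl2c2, at -4.76, and for the small heat shock protein Cryab, at -4.59. At day 4 the Prl2c2 groups overlapped, at 0.14, 0.48 and 0.29 FPKM in 23-NC and 0.3, 4.98 and 0.8 FPKM in 23-Tet1, and 23-Tet1 replicate 2 stood far above the others; its day 4 call was lost without that library (limma, adjusted p = 0.258). Prl2c2 belongs to a family of near-identical copies, so its reads are uncertain.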

How the results depend on the processing

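The counts of genes called at day 4 and between days stayed within 1.5 times the reported value under every alternative run. Calls at day 4 were 6933 with a pseudocount of 0.1 FPKM, 7254 without a filter, 6083 with a filter of 5 FPKM, 6733 after quantile normalisation, 6789 after median-ratio scaling, 6294 with the 2 groups alone and 8178 with library weights. With the replicate block 6936 genes were called, and the block changed no call among 162 genes tracked. Leaving out 1 library at a time gave 6243 to 6719 calls at day 4, 5711 to 6448 between days 0 and 4, 3438 to 3808 between days 2 and 4 and 6378 to 6534 between days 4 and 6. Of 162 genes tracked, 147 kept direction and call throughout and 4 reversed, none of which had been called. Rxra reversed under median-ratio scaling (-0.10) and ranged from -0.0351 to 0.0600 when 1 library was left out. Cebpb reversed with library weights (0.14) and ranged from -0.41 to 0.17. Lipe reversed with quantile normalisation (0.14) and with library weights (0.0343), and ranged from -0.0516 to 0.0607. Cd68 ranged from -0.54 to 0.0870. The calls of Adipoq, Cd1d1, Crem, Hspa1b, Jun, Mbd2, Plin1, Prl2c2, Tet2 and Usp18 were each lost under at least 1 alternative, and Fabp4 was called under 1 and Cd68 under 2. The cause was not tested. Depth limits genes under about 1 FPKM, where 1 fragment is a visible step.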

Other observations

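Values of 4 further lists at day 4 are given, to be read against the 35% of all genes that were higher and the 21.9% that were lower. Of 19 genes of endoplasmic reticulum and heat shock stress, 8 were higher and 4 lower in 23-Tet1 (42.1% and 21.1%), near the shares of all genes. The lumenal chaperones Calr and Hspa5 were higher, at 0.76 ± 0.07 and 0.57 ± 0.06 on the log2 scale: Hspa5 read 249, 253 and 277 FPKM in 23-NC and 363, 407 and 387 FPKM in 23-Tet1. Asparagine synthetase Asns and the pseudokinase Trib3, targets of the ATF4 pathway, were lower, at -1.18 ± 0.06 and -1.67 ± 0.12. The 3 libraries of each group did not overlap for these 4 genes.

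Of 13 genes of retinoid metabolism and binding, 5 were higher and 3 lower (38.5% and 23.1%), also near those shares, and after quantile normalisation 3 and 3. The retinoic acid receptors Rara and Rarg differed by 0.59 ± 0.07 and 0.82 ± 0.06, and the retinaldehyde dehydrogenase Aldh1a1 by -1.33 ± 0.18, at 6.91, 8.61 and 9.89 FPKM in 23-NC and 2.06, 5.61 and 1.58 FPKM in 23-Tet1. Of 17 contractile genes, 8 were higher and 5 lower: Acta2, smooth muscle actin, read 7.67, 8.87 and 7.19 FPKM in 23-NC and 1.04, 2.93 and 0.83 FPKM in 23-Tet1 (difference -1.86 ± 0.16), whereas the actin cross-linker Flna differed by 1.20 ± 0.11. After quantile normalisation 5 were higher and 3 lower, and under median-ratio scaling 7 and 8. Of 30 cytosolic ribosomal protein genes, 1 was higher and 8 were lower, against 7 higher and 10 lower after quantile normalisation and 15 lower under median-ratio scaling. Reads of ribosomal protein genes are shared with processed pseudogenes and are uncertain.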
